A study of Sus scrofa domesticus with 28 samples.

Results

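GP91-PHOX, ITGB2, C5AR1 and CCR1 are genes of phagocytes, the white blood cells that take up and destroy microbes and debris. They were found as the array probes whose RefSeq transcript accession belongs to one of these pig genes, which gave 7 of 43603 probes and 4 of the 3216 genes that have a symbol. The rule that finds them uses no measured value, although the genes were proposed with earlier results of these data known. The array carried 2 probes each for GP91-PHOX, C5AR1 and CCR1 and 1 for ITGB2, and the brighter probe stood for its gene. All 4 genes passed the filter on dim probes and were among the 18765 features tested.

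RNA from 28 skin biopsies of 2 juvenile, castrated male red Duroc pigs, a breed used as a model of thick, raised scarring, was hybridised to 1 array each. Scar was sampled at 3 phases that the labels call early, mid and late. There were 4 biopsies each of early sham hyperpigmented (hyper) and early sham hypopigmented (hypo) scar. There were 2 biopsies, 1 from each animal, in each of the 8 groups that combine mid or late phase, pressure or sham treatment, and hyper or hypo scar. Control skin gave 4 biopsies, 1 from each side of each animal. A biopsy is named here by animal (49 or 50) and side (L or R). In mid and late scar every pressure biopsy came from the right side and every sham biopsy from the left, so treatment and side cannot be told apart. Every value is the log2 ratio of the biopsy signal (Cy5) to a universal pig reference RNA (Cy3) on the same array, so a negative value means less signal than in the reference. The scanner program marked 31.4 to 55.7% of an array's probes as well above background in Cy5. In the fixed list of keratinocyte genes 4 were measured, among them the adhesion genes CDH1 and EPCAM. Since the biopsies came from 2 animals, p-values measure the spread between biopsies and not between pigs.

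As background, GP91-PHOX, also called CYBB, is the catalytic, electron-carrying subunit of the phagocyte NADPH oxidase, which makes superoxide from oxygen. It sits in the membrane with CYBA and works only when cytosolic subunits such as NCF1 join them. ITGB2 is the beta chain shared by the leucocyte integrins, with which white blood cells hold on to ICAM molecules of the vessel wall. C5AR1 is the receptor for C5a, the fragment of complement protein C5 that attracts and activates phagocytes. CCR1 is a receptor for inflammatory chemokines such as CCL3 and CCL5. In skin wounds neutrophils and then macrophages bring these molecules into the tissue.

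The probes that stood for GP91-PHOX, ITGB2 and C5AR1 were well above background on 28 of 28 arrays, and that for CCR1 on 25 of 28, with 3 of the 4 control arrays among them. The Cy5 spot brightness of GP91-PHOX ran from 177 to 15497 (median 1017), that of ITGB2 from 142.5 to 6373 (median 341), that of C5AR1 from 160.5 to 10280.5 (median 857.5) and that of CCR1 from 76 to 4772 (median 170). None of these spots was flagged or saturated. The second CCR1 probe followed the first closely over the 28 arrays (r = 0.994). The second probes of GP91-PHOX and C5AR1 were dim. That of GP91-PHOX was well above background on 11 arrays and on 0 of the 4 control arrays, and that of C5AR1 on 7 arrays and on 1 control array. Their correlations with the brighter probe were 0.887 and 0.706.

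To ask how phagocyte genes differ between scar and skin, scar of each phase was set against control skin. All 4 genes averaged higher in scar than in control skin at every phase, by 1.48 to 2.38 on the log2 scale. Of the 4 genes, 2 passed the threshold of adjusted p 0.05 in early scar, GP91-PHOX and C5AR1. Another set of 2 passed in mid scar, GP91-PHOX and ITGB2, and all 4 passed in late scar. Rises were common on this array: 24.1% of all tested features were called higher in early scar, 22.1% in mid scar and 26.3% in late scar. The median of all features was 0.11, 0.10 and 0.10. In bulk tissue more cells of a type and more RNA per cell cannot be told apart.

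GP91-PHOX had a lowest, median and highest log2 ratio of -1.25, -0.65 and 1.61 in the 8 early scar biopsies, against -2.32 (49L), -3.03 (49R), -3.19 (50L) and -2.24 (50R) in control skin. All early scar biopsies lay above all control biopsies. In mid scar its values were -2.70, -1.36 and 2.58, and in late scar -2.85, -0.94 and 1.62 (lowest, median and highest of 8 each). In both of these phases 7 of 8 scar biopsies lay above the highest control biopsy. The difference from control skin was 2.37 ± 0.73 (SE) in early scar, a 5.18-fold higher ratio (adjusted p = 0.0142). It was 1.98 ± 0.73 in mid scar (adjusted p = 0.0424) and 2.03 ± 0.73 in late scar (adjusted p = 0.0326).

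ITGB2 had a lowest, median and highest log2 ratio of -2.32, -1.74 and 0.43 in early scar, against -2.91 (49L), -3.02 (49R), -3.07 (50L) and -2.52 (50R) in control skin. Its values were -2.26, -1.87 and 1.87 in mid scar and -2.46, -1.34 and 1.81 in late scar. The 24 scar biopsies all lay above the 4 control biopsies, but the lowest early, mid and late scar values exceeded the highest control value by as little as 0.06 to 0.26. The differences were 1.48 ± 0.66 (SE) in early scar (adjusted p = 0.0817), 1.74 ± 0.66 in mid scar (adjusted p = 0.0474) and 2.08 ± 0.66 in late scar (adjusted p = 0.0165). The early difference did not pass the threshold although the groups did not overlap.

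C5AR1 had a lowest, median and highest log2 ratio of -0.52, 0.31 and 2.42 in early scar, against -1.05 (49L), -1.44 (49R), -2.00 (50L) and -0.79 (50R) in control skin. Mid scar gave -1.63, -0.38 and 3.27, and late scar -1.77, 0.57 and 3.37. Early scar lay wholly above control skin, whereas in mid scar only 4 of 8 and in late scar 7 of 8 biopsies were above the highest control biopsy. The differences were 1.96 ± 0.70 (SE) in early scar (adjusted p = 0.0319), 1.5 ± 0.70 in mid scar (adjusted p = 0.104) and 2.03 ± 0.70 in late scar (adjusted p = 0.0267).

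CCR1 had a lowest, median and highest log2 ratio of -1.90, -1.23 and 1.90 in early scar, against -2.12 (49L), -2.13 (49R), -2.48 (50L) and -2.46 (50R) in control skin. Its values were -1.98, -1.51 and 3.22 in mid scar and -1.70, -0.77 and 2.99 in late scar. As for ITGB2, every scar biopsy lay above every control biopsy. The differences were 1.58 ± 0.85 (SE) in early scar (adjusted p = 0.148), 1.75 ± 0.85 in mid scar (adjusted p = 0.116) and 2.38 ± 0.85 in late scar (adjusted p = 0.0301). CCR1 thus had both the largest late difference and the largest standard error of the 4 genes.

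**Figure D1:**
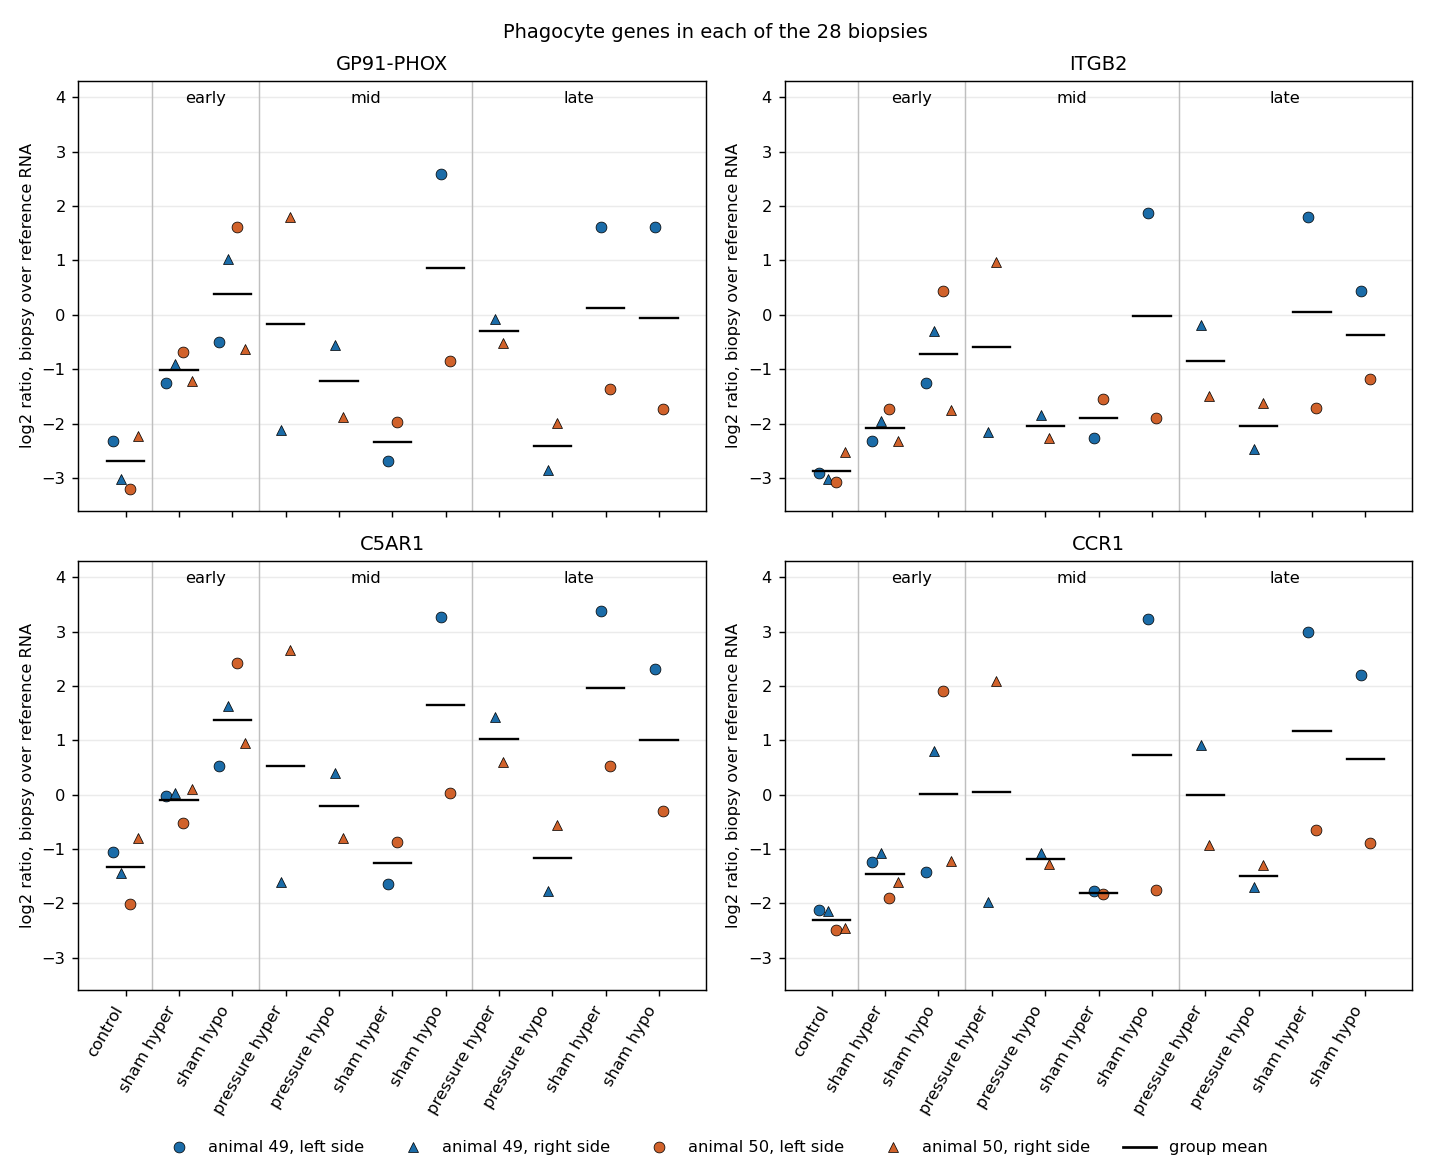
Log2 ratio of biopsy to reference RNA (y axis) for GP91-PHOX, ITGB2, C5AR1 and CCR1 in each of the 28 biopsies, by group from control skin through early, mid and late scar (x axis). Points are biopsies, coloured by animal, and bars are group means. Control skin lies between -3.19 and -0.79 over the 4 genes, and the highest scar values, up to 3.37, come from the same few biopsies in each panel.

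Biopsies that do not overlap were counted for all features as well. In early scar all 4 genes had no overlap with control skin, as did 15.8% of all tested features in the upward direction. In mid scar and in late scar ITGB2 and CCR1 had none, 2 of 4 genes, against 7.32% and 9.79% of all features. An exact two-sided permutation test of 8 scar against 4 control biopsies, which has 495 regroupings, gave its smallest possible value, p = 0.00404, for each gene in early scar and for ITGB2 and CCR1 in mid and late scar. For GP91-PHOX the exact p was 0.0242 in mid scar and 0.0202 in late scar. For C5AR1 it was 0.113 and 0.0283. This test was chosen after the data were seen and leaves out the animal.

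The size of the differences came with a spread between biopsies that few other features showed. The residual SD, the spread of biopsies around their group mean after the animal was taken into account, was 1.34 for GP91-PHOX, 1.21 for ITGB2, 1.29 for C5AR1 and 1.55 for CCR1. The median over 18765 features was 0.259 and the 99th percentile 1.03. The spread of the 4 genes was thus 4.66 to 6.0 times the median, and only 53 to 116 features, 0.282 to 0.618% of all, had a larger one.

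**Figure D2:**
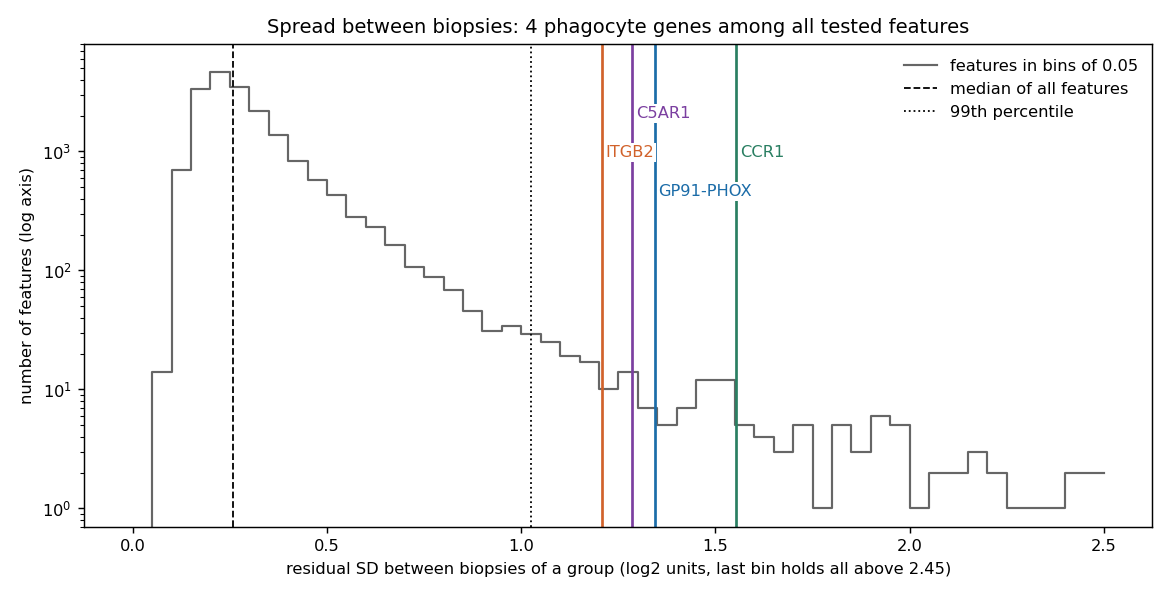
Number of tested features (y axis, log scale) in bins of residual SD between biopsies (x axis, log2 units). Coloured lines mark the 4 phagocyte genes, from ITGB2 at 1.21 to CCR1 at 1.55, all to the right of the 99th percentile at 1.03.

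This spread fell on the same biopsies for all 4 genes. The 7 highest values of each gene came from the same 7 biopsies. These were early sham hypo 49R and 50L, mid pressure hyper 50R, mid sham hypo 49L, late pressure hyper 49R, late sham hyper 49L and late sham hypo 49L. They include hyper and hypo scar, pressure and sham treatment, both sides, both animals and all 3 phases, with 5 of the 7 from animal 49. Between any 2 of the 4 genes r was 0.916 to 0.970 and rho 0.832 to 0.951 over the 28 arrays, and r was 0.926 to 0.966 for deviations from the group means. These correlations describe arrays that share animals, slides and a reference RNA. C5AR1 and GP91-PHOX were the closest pair.

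The order of group means placed control skin lowest for each of the 4 genes. The highest group mean was late sham hyper scar for ITGB2 (0.05), C5AR1 (1.95) and CCR1 (1.17), and mid sham hypo scar for GP91-PHOX (0.87). Each of these highest groups holds 1 of the 7 high biopsies and 1 far lower one. Late sham hyper scar had C5AR1 values of 3.37 in 49L and 0.53 in 50L. Mid sham hypo scar had GP91-PHOX values of 2.58 in 49L and -0.84 in 50L. Of the 10 neighbouring pairs of groups in this order, 8 overlapped for GP91-PHOX, 8 for ITGB2, 10 for C5AR1 and 7 for CCR1, so the order among scar groups is not resolved beyond the spread.

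Because a few biopsies carried the highest values, each of the 8 scar and 4 control arrays of a comparison was left out in turn. No difference changed sign in these 12 fits per gene and phase. GP91-PHOX in early scar and ITGB2 in late scar passed in 12 of 12 fits. In early scar, C5AR1 passed in 7 of 12 fits, and ITGB2 and CCR1 in none, the lowest adjusted p being 0.0681 and 0.0863. C5AR1 lost the early call without control 49L (2.01), 49R (1.87) or 50L (1.77), early sham hyper 50R (1.90) or early sham hypo 50L (1.76), with adjusted p of 0.0501 to 0.102.

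In mid scar the calls were held by fewer fits. GP91-PHOX passed in 5 of 12 fits, ITGB2 in 3, C5AR1 in 2 and CCR1 in 2. The 2 mid pressure hyper biopsies moved each gene in opposite directions, because 50R was high and 49R low. Without mid pressure hyper 50R the differences were 1.40 for GP91-PHOX, 1.27 for ITGB2, 0.89 for C5AR1 and 1.11 for CCR1, and none passed (adjusted p = 0.0913 to 0.262). Without mid pressure hyper 49R they were 2.56, 2.21, 2.12 and 2.39 for the same genes, and all 4 passed (adjusted p = 0.00502 to 0.0199). C5AR1 (1.90) and CCR1 (2.33) also passed without mid sham hypo 50L. GP91-PHOX lost the mid call without control 49L, 49R or 50L, mid pressure hypo 49R, mid pressure hyper 50R, mid sham hyper 50L or mid sham hypo 49L, with 1.40 to 2.05 (adjusted p = 0.0725 to 0.117). ITGB2 lost it without any one of the 4 control biopsies, without mid pressure hyper 50R, either mid pressure hypo biopsy, mid sham hyper 50L or mid sham hypo 49L, with 1.27 to 1.93 (adjusted p = 0.0541 to 0.113). Biopsies outside a comparison act on it through the shared estimate of the spread. Without early sham hyper 49R the mid call of GP91-PHOX was lost (adjusted p = 0.0501), and without any one of the early scar biopsies other than early sham hypo 50L that of ITGB2 was lost (adjusted p = 0.0505 to 0.0556), with the differences as before. Conversely ITGB2 was called in early scar without either mid pressure hyper or either mid sham hypo biopsy (1.48, adjusted p = 0.0453 to 0.0485).

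In late scar the calls of GP91-PHOX and C5AR1 were kept in 6 of 12 fits each and that of CCR1 in 4. Leaving out late sham hyper 49L gave the lowest late difference for ITGB2 (1.66), C5AR1 (1.68) and CCR1 (1.99). For GP91-PHOX it was late sham hypo 49L (1.63). GP91-PHOX and C5AR1 lost the late call without the same 6 biopsies, namely control 49L, 49R or 50L, late pressure hypo 50R, late sham hyper 49L and late sham hypo 49L (adjusted p = 0.0509 to 0.0922). CCR1 lost it without these 6, without control 50R (2.45) and without late pressure hyper 49R (2.23), with adjusted p from 0.0516 to 0.0707.

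**Figure D3:**
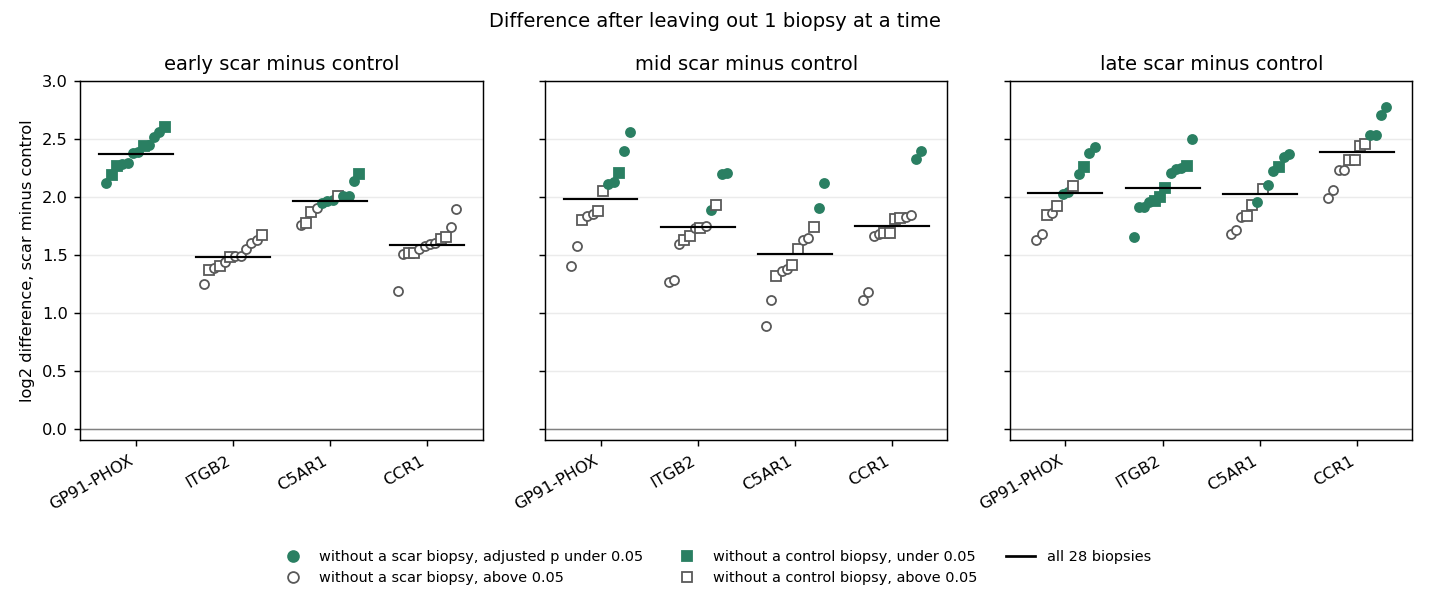
Scar minus control in log2 units (y axis) for each gene (x axis) and phase (panels) when 1 of the 12 arrays of the comparison is left out, with squares for control and circles for scar biopsies, filled where adjusted p is under 0.05, and lines for the value from all 28 biopsies. The differences stay above 0 throughout, and the spread of points is widest in mid scar, from 1.40 to 2.56 for GP91-PHOX and from 0.89 to 2.12 for C5AR1.

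The phases themselves were compared within sham scar, the treatment they share. In late sham against early sham scar the differences were 0.35 ± 0.73 (SE) for GP91-PHOX (adjusted p = 0.763), 1.24 ± 0.66 for ITGB2 (0.184), 0.84 ± 0.70 for C5AR1 (0.409) and 1.63 ± 0.85 for CCR1 (0.172). None of the 4 passed, against 19.9% of all features in either direction. For GP91-PHOX the sign turned without late sham hyper 49L (-0.34) and without late sham hypo 49L (-0.45). Leaving out all 49L biopsies gave values below 0 for all 4 genes, -0.25 to -1.53.

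Scar and control biopsies shared 3 of the 7 array slides. Within these slides scar was above control for every gene at each phase that could be compared, by 0.37 to 4.50. Slide as a random block, with a consensus correlation of 0.063, left the number of genes called at 2 in early and 4 in late scar and gave 1 in mid scar, where ITGB2 had an adjusted p of 0.0503. With slide as a fixed block 0, 0 and 2 genes were called in early, mid and late scar. Centring each array on its median in place of loess called 0 of the 4 genes at each phase, with differences of 1.03 to 2.14. It also moved the median of all features by -0.09, -0.14 and -0.21 in early, mid and late scar. With median centring the differences of the 4 genes were still 1.07 to 2.12 above the median of all features. The share of all calls that were higher was 62, 65.5 and 66.3% as reported, and 47.5, 28.9 and 19.8% with median centring. It was 54.1, 52.9 and 52.7% with the Cy5 channel alone, and 55.0% in late scar with the scanner's processed signals.

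The other genes of the NADPH oxidase were read from a fixed list of 10, of which 5 were measured. In early scar 1 rose and 1 fell, in mid scar 1 rose and 1 fell, and in late scar 2 rose and 1 fell. Of all features 24.1, 22.1 and 26.3% were called higher and 14.8, 11.7 and 13.4% lower in early, mid and late scar. The counts of the lists below are to be read beside these same shares. The list's median difference was 0.06, 0.41 and 0.64, against 0.11, 0.10 and 0.10 over all features. CYBA, the membrane partner of GP91-PHOX, rose at each phase, by 1.36 ± 0.42 (SE, adjusted p = 0.0140), 1.13 ± 0.42 (0.0436) and 1.20 ± 0.42 (0.0279). Over the 28 arrays CYBA followed the mean of the 4 phagocyte genes (r = 0.925). NCF1, the organiser subunit, was well above background on 0 control and 4 scar arrays, and no fold is given for it. DUOX1, an oxidase of epithelia, fell by 0.82, 0.70 and 0.59 (adjusted p = 0.00683, 0.0208 and 0.0419). DUOX2, its close relative, rose in late scar (0.64 ± 0.17, adjusted p = 0.00595), and was 0.41 ± 0.17 in mid scar (0.0756). DUOX2 was well above background on 2 control, 4 mid and 5 late scar arrays. The direction of the list's median was the same with the other scalings, while the counts were not. With median centring 0 rose at any phase, and 1, 0 and 1 fell in early, mid and late scar. With the Cy5 channel alone or the scanner's processed signals 1, 0 and 0 rose, and 0 fell. The mid and late rises of CYBA and the late rise of DUOX2 were thus not called under any of these scalings.

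Among genes that act with ITGB2 in the passage of leucocytes through the vessel wall, 7 of 14 were measured. In early scar 2 rose and 1 fell, in mid scar 4 rose and 1 fell, and in late scar 5 rose. The list's median was 0.43, 0.73 and 0.85. ICAM1, an endothelial ligand of ITGB2 integrins, rose by 1.08 ± 0.32 (SE, adjusted p = 0.0117), 1.08 ± 0.32 (0.0139) and 1.33 ± 0.32 (0.00272). SELP, the selectin on which leucocytes first roll, rose by 1.73, 1.82 and 1.69 (SE 0.29 to 0.30, adjusted p from 1.21e-04 to 2.21e-04). The endothelial ligand VCAM1 rose in mid scar (1.21 ± 0.42, adjusted p = 0.0302) and late scar (1.47 ± 0.42, 0.00836), and was 0.21 ± 0.42 in early scar (0.718). SELE, the selectin of activated endothelium, fell by 1.41 in early and by 1.37 in mid scar (adjusted p = 0.0305 and 0.0396), with -0.52 in late scar (0.428). ITGAL, the alpha chain that pairs with ITGB2 on lymphocytes, was well above background on 0 control and 5 scar arrays. With median centring 1, 1 and 1 genes of this list rose, and with Cy5 alone 2, 1 and 3.

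Among complement genes, the source of the C5AR1 ligand, 13 of 21 were measured. In early scar 4 rose, in mid scar 6 and in late scar 5, and none fell. The list's median was 0.25, 0.58 and 0.74. The C1q chains, 3 genes that the macrophage list holds as well and which start the classical pathway and are made by macrophages, were called in early scar: C1QA with 0.85 ± 0.20 (SE, adjusted p = 0.0017), C1QB with 1.39 ± 0.36 (0.00473) and C1QC with 1.07 ± 0.32 (0.0120). In late scar the called genes were C2 (1.02 ± 0.22, adjusted p = 0.00106), CFB (0.95 ± 0.23, 0.00289), C6 (0.94 ± 0.24, 0.00434), C3 (1.08 ± 0.31, 0.00901) and CD55 (0.66 ± 0.21, 0.0189). These include enzymes, a pore component and an inhibitor of the cascade. C5, from which the ligand is cut, was at -0.13 ± 0.19, 0.23 ± 0.19 and 0.46 ± 0.19 and did not pass (adjusted p = 0.627, 0.384 and 0.0613). The counts of this list varied with the scaling. With median centring 0 genes rose at any phase, 2, 1 and 2 fell, and the late median was -0.16. With Cy5 alone 3, 1 and 3 rose, and the late median was 0.51. With the scanner's processed signals 3, 1 and 4 rose, and the late median was 0.65. None fell under either of these scalings.

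Among chemokines and receptors around CCR1, 9 of 17 were measured, and 2 rose at each phase. That is near the share of all features called higher, 24.1, 22.1 and 26.3% in early, mid and late scar. The list's median was 0.21, 0.52 and 0.56. With median centring 1, 1 and 0 rose and the late median was 0.22, and with Cy5 alone 2, 1 and 1 rose. The monocyte attractant CCL2 rose by 1.26 ± 0.40 (SE, adjusted p = 0.0161), 1.25 ± 0.40 (0.0204) and 1.68 ± 0.40 (0.00235). CCL8 rose by 1.55 ± 0.31 in early scar (adjusted p = 6.28e-04) and 0.90 ± 0.30 in mid scar (0.0262), and was 0.47 ± 0.30 in late scar (0.221), with 1 of 4 control arrays well above background. CCR7, a receptor that guides cells to lymph nodes, rose in late scar by 0.45 ± 0.15 (0.0253), with 2 control and 5 late scar arrays well above background. CCL5, a CCR1 ligand, was at 0.52, 0.86 and 1.01 with SE 0.43 and did not pass (adjusted p = 0.350, 0.127 and 0.0656). In late sham against early sham scar CCL3L1, a relative of the CCR1 ligand CCL3, rose by 1.06 ± 0.32 (adjusted p = 0.0265). It was well above background on 8 early but only 5 late scar arrays, sham and pressure together. In that comparison 19.9% of all features were called in either direction.

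Antioxidant genes handle the products of the oxidase. Of 10 measured, 2 rose and 5 fell in early scar, 0 rose and 4 fell in mid scar, and 2 rose and 4 fell in late scar, with a median of -0.51, -0.27 and -0.42. With median centring 0 rose and 6, 5 and 8 fell. The peroxidase PRDX6 fell by 2.24, 1.53 and 1.52, the quinone reductase NQO1 by 1.28, 1.24 and 1.33, and catalase CAT by 1.66, 1.38 and 1.18, each with an adjusted p of at most 0.00198. HMOX1, which breaks down haem, rose in early scar (0.96 ± 0.30, adjusted p = 0.0151) and late scar (0.82 ± 0.30, 0.0347).

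To see which cells' markers moved with the 4 genes, fixed marker lists were read in the same biopsies. A list level is the mean of its measured genes, each centred on its own mean over the arrays. Of 16 general leucocyte markers 3 were measured, and 0, 1 and 3 of them rose in early, mid and late scar. With median centring 0 rose at any phase and the late median was 0.51 in place of 1.40, and with Cy5 alone 0, 0 and 1 rose. TYROBP, an adaptor of myeloid receptors, was at 1.11 ± 0.49 (SE, adjusted p = 0.0781), 1.31 ± 0.49 (0.0429) and 1.47 ± 0.49 (0.0210). The level of this list ran from -0.75 to 1.27 in early, -0.79 to 2.09 in mid and -0.80 to 2.09 in late scar, against -1.22 to -0.61 in control skin. Over the 28 arrays it correlated with the mean of the 4 genes at r = 0.960.

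Of 22 macrophage and monocyte markers 14 were measured. In early scar 8 rose and 1 fell, in mid scar 5 rose and 1 fell, and in late scar 2 rose and 1 fell. Of all features 24.1, 22.1 and 26.3% were called higher in these phases, so the late count is below that share. With Cy5 alone 6, 2 and 2 of these markers rose. With median centring 3, 0 and 1 rose, and the late median was -0.05 in place of 0.81. The haemoglobin scavenger receptor CD163 rose by 1.89 ± 0.47 in early scar (adjusted p = 0.00352) and 1.30 ± 0.47 in mid scar (0.0390), and was 0.99 ± 0.47 in late scar (0.101). The Fc receptor FCGR3A rose at each phase, by 1.5, 1.32 and 1.69 (SE 0.26, adjusted p from 5.17e-05 to 8.25e-04). TLR4, a receptor for bacterial lipopolysaccharide, fell by 0.58, 0.66 and 0.71 (adjusted p = 0.0133, 0.00712 and 0.00333). The level of this list was -0.39 to 0.93 in early, -0.49 to 1.23 in mid and -0.72 to 1.31 in late scar, against -0.95 to -0.38 in control skin, and it correlated with the 4 genes at r = 0.957. FCGR1A and CLEC7A of this list were well above background on 0 control arrays. The part of leucocyte and macrophage content in the scar differences was not tested.

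Neutrophil markers did not follow the 4 genes. Of 18 there were 7 measured, with 1 called higher and 2 lower in early scar, 0 and 1 in mid scar, and 1 and 1 in late scar. The list level ran from -0.38 to 2.28 in early, -0.86 to 0.33 in mid and -0.61 to 0.32 in late scar, against -0.08 to 0.92 in control skin, and its correlation with the 4 genes was 0.082. The highest level was in early sham hypo 50R, which is not among the 7 high biopsies. Within the list the granule protein LTF, which glands also make, had differences of -2.63, -2.88 and -3.33 in early, mid and late scar and fell at each phase (adjusted p = 2.20e-04, 1.98e-04 and 2.62e-05). LTF was well above background on 4 control, 8 early and 6 mid but only 1 late scar array, so the size of its late fall is not resolved. The protease MMP9, which macrophages and osteoclasts make too, rose in late scar by 1.66 ± 0.61 (SE, adjusted p = 0.0356) and correlated with the 4 genes at r = 0.937. The calcium-binding genes S100A8, S100A9 and S100A12, which keratinocytes also make, did not pass at any phase (adjusted p at least 0.300).

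Keratinocyte markers ran opposite to the 4 genes. Of 4 measured genes, 3, 2 and 3 fell in early, mid and late scar and none rose. Their level was -2.16 to 0.00 in early, -1.13 to 0.87 in mid and -1.05 to 0.88 in late scar, against 1.06 to 1.36 in control skin, and its correlation with the 4 genes was -0.823. T and NK cell markers had 0, 3 and 5 of 9 called higher (r = 0.597 with the 4 genes). The single genes of this list were split, with r from -0.35 to 0.957, the highest being NKG7. Endothelial markers had 6, 6 and 7 of 7 called higher (r = 0.274), and fibroblast markers 5, 3 and 2 of 5 (r = 0.046). For deviations from the group means r was 0.691 for T and NK cell, -0.155 for endothelial and -0.561 for fibroblast markers. With median centring 1, 0 and 1 T and NK cell, 5, 5 and 2 endothelial and 5, 3 and 1 fibroblast markers were called higher, and with Cy5 alone 0, 0 and 1 T and NK cell markers. Mast cell markers (2 measured) and the 1 measured B cell marker had 0 calls, and 0 red blood cell markers were measured. Skeletal muscle markers had 2, 1 and 3 of 12 called higher, or 1, 0 and 0 with median centring, and their level was far above the rest in late pressure hyper 49R (4.68), mid pressure hyper 49R (3.93) and early sham hypo 50L (2.74). Late pressure hyper 49R and early sham hypo 50L are among the 7 high biopsies for the phagocyte genes, and mid pressure hyper 49R, with a GP91-PHOX ratio of -2.13, is not. The correlation of the muscle list with the 4 genes was 0.170, and that of the share of probes well above background 0.114. The part of these contents in the scar differences was not tested.

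**Figure D4:**
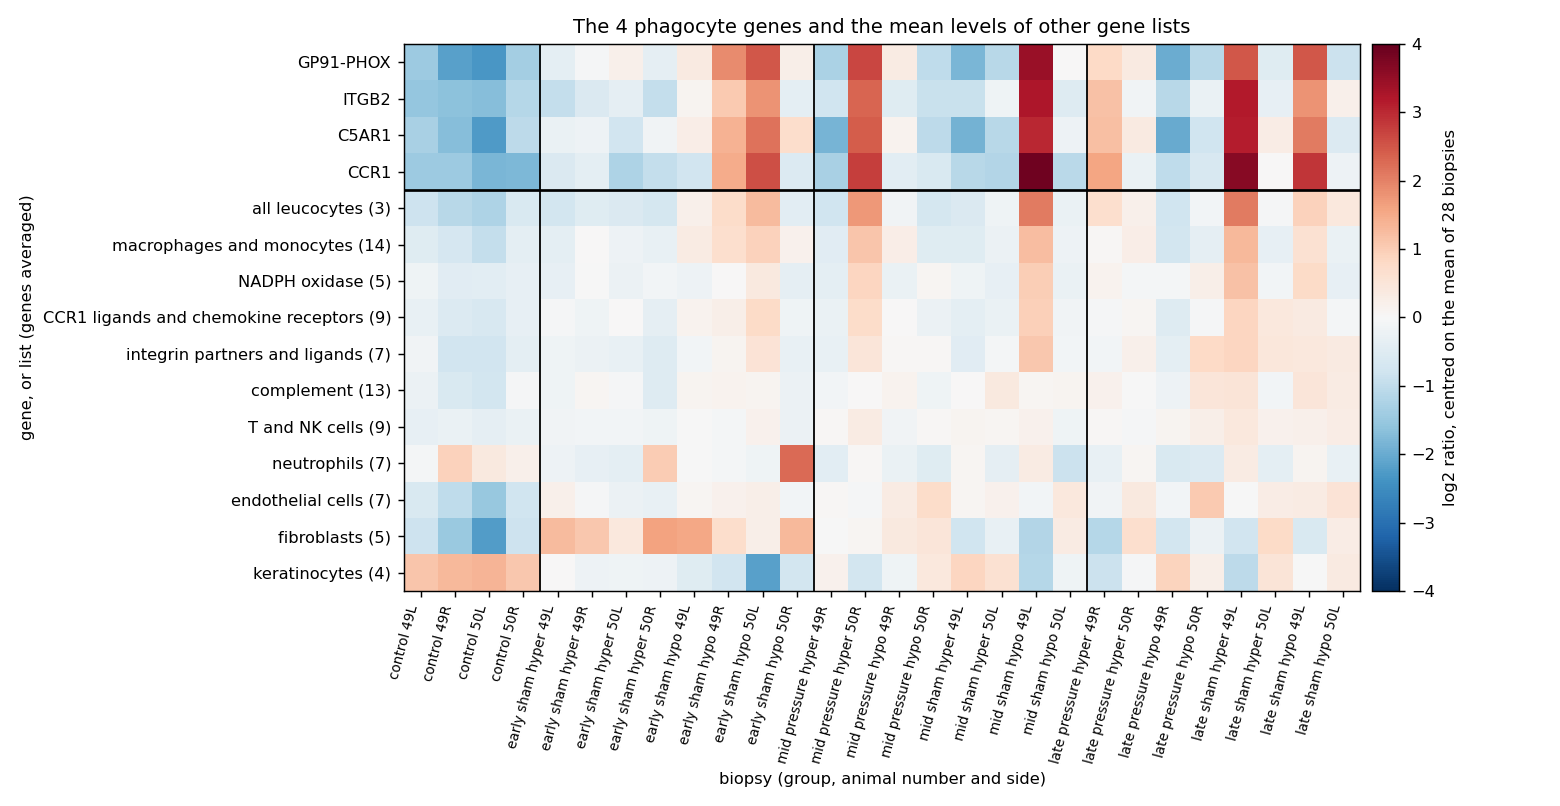
Centred log2 level (colour, from -4 to 4) of the 4 phagocyte genes and of each pathway and marker list (rows) in the 28 biopsies (columns, by group). Leucocyte and macrophage lists are high in the same biopsies as the 4 genes (r = 0.960 and 0.957), keratinocyte markers are low there (r = -0.823), and neutrophil markers follow neither (r = 0.082).

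The features most like the mean of the 4 genes over the 28 arrays were found by Pearson correlation, with the 4 genes themselves left out. Of 18761 features 85 had r above 0.9, 32 of them with a symbol, and 21 had r under -0.8. Among the 8 named features with the highest r were TYROBP (0.970), AMBN (0.969), AIF1 (0.963), DOK2 (0.960), ACP5 (0.958), NKG7 (0.957) and LIPA (0.957). AIF1 is a calcium-binding protein of macrophages, DOK2 an adaptor of blood cells, ACP5 the acid phosphatase of osteoclasts and activated macrophages, and LIPA the lysosomal lipase. AMBN encodes ameloblastin, a protein of tooth enamel, and NKG7 a granule membrane protein of killer cells. For the single genes the closest features were C5AR1, SLA-DMB and VSIG4 for GP91-PHOX (r = 0.970, 0.955 and 0.951) and CD48, AIF1 and TYROBP for ITGB2 (0.982, 0.976 and 0.976). For C5AR1 they were GP91-PHOX, SDCBP and ACP5 (0.970, 0.953 and 0.952), and for CCR1 they included AIF1 and DCSTAMP (0.970 and 0.966). After removal of the 2 arrays farthest from the median, r of the 8 features with the mean of the 4 genes was 0.935 to 0.955.

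To ask whether phagocyte genes differ with scar colour, hyper was compared with hypo scar. Over all phases the differences were -0.44 ± 0.49 (SE) for GP91-PHOX, -0.26 ± 0.44 for ITGB2, -0.33 ± 0.47 for C5AR1 and -0.37 ± 0.56 for CCR1. Their 95% intervals ran from -1.46 to 0.58, from -1.17 to 0.66, from -1.31 to 0.64 and from -1.55 to 0.80. None of the 4 passed in limma (adjusted p = 0.999 each), and 0.016% of all features did, 3 of 18765, with 462 at an unadjusted p under 0.05. Over the 12 pairs that share animal, side, phase and treatment the exact two-sided sign-flip permutation p was 0.542, 0.663, 0.643 and 0.601 in the same order of genes, where 0.000488 is the smallest possible. On 6 slides with both kinds of scar hyper was above hypo on 3 or 4. A code in the sample titles separates all hyper from all hypo biopsies in the same way, so that colour and what the code marks cannot be told apart.

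Within this average the early and late pairs pointed opposite ways. In early scar GP91-PHOX was -1.25 (49L), -0.91 (49R), -0.68 (50L) and -1.22 (50R) in hyper scar, against -0.50, 1.02, 1.61 and -0.63 in hypo scar of the same animals and sides. Early C5AR1 was -0.02, 0.04, -0.52 and 0.10 in hyper scar, against 0.52, 1.63, 2.42 and 0.95 in hypo scar in the same order. All 4 early pairs were lower in hyper scar for GP91-PHOX, ITGB2 and C5AR1, and 3 of 4 for CCR1, the exception being 49L (0.18). For GP91-PHOX and C5AR1 all 4 hyper values lay below all 4 hypo values, as they did for 1.96% of all features. The mean differences were -1.39, -1.36, -1.48 and -1.47 for GP91-PHOX, ITGB2, C5AR1 and CCR1. None passed (adjusted p = 0.998), nor did any of the 18765 features in limma, with 865 at an unadjusted p under 0.05.

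In late scar GP91-PHOX was -0.08 (49R, pressure), -0.52 (50R, pressure), 1.61 (49L, sham) and -1.37 (50L, sham) in hyper scar, against -2.85, -1.98, 1.62 and -1.73 in hypo scar in the same order. Late C5AR1 was 1.44, 0.61, 3.37 and 0.53 in hyper scar, against -1.77, -0.56, 2.31 and -0.30 in hypo scar. Late pairs were higher in hyper scar in 4 of 4 for C5AR1 and CCR1 and in 3 of 4 for GP91-PHOX and ITGB2, though the groups overlapped. The late differences were 1.15 ± 0.85 (SE) for GP91-PHOX, 0.81 ± 0.76 for ITGB2, 1.57 ± 0.81 for C5AR1 and 1.0 ± 0.98 for CCR1. None passed (adjusted p = 0.272 to 0.589), against 5.02% of all features. The change of the hyper minus hypo difference between early and late scar was 2.54 ± 1.20 for GP91-PHOX, 2.18 ± 1.08 for ITGB2, 3.05 ± 1.15 for C5AR1 and 2.47 ± 1.38 for CCR1. It did not pass either (adjusted p = 0.230, 0.255, 0.131 and 0.317), against 4.88% of all features.

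In mid scar the pairs had no common direction. GP91-PHOX was -2.13 (49R, pressure), 1.80 (50R, pressure), -2.70 (49L, sham) and -1.97 (50L, sham) in hyper scar, against -0.55, -1.88, 2.58 and -0.84 in hypo scar. The pair differences of the 4 genes in mid scar ran from -5.28 to 3.67. The lowest differences were in 49L sham and the highest in 50R pressure for all 4 genes. The mean was -1.08 ± 0.85 (SE) for GP91-PHOX, -0.22 ± 0.76 for ITGB2, -1.08 ± 0.81 for C5AR1 and -0.65 ± 0.98 for CCR1 (adjusted p = 0.688 to 0.948). In limma 0 of 18765 features were called, with 1763 at an unadjusted p under 0.05.

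To ask whether pressure treatment altered these genes, pressure was compared with sham scar in mid and late phases. Over both phases the difference was -0.67 ± 0.60 (SE) for GP91-PHOX, -0.82 ± 0.54 for ITGB2, -0.80 ± 0.57 for C5AR1 and -0.84 ± 0.69 for CCR1. The 95% intervals ran from -1.92 to 0.57, from -1.95 to 0.30, from -1.99 to 0.40 and from -2.29 to 0.60. None passed (adjusted p = 0.905 to 0.924), nor did any of the 18765 features in limma, with 959 at an unadjusted p under 0.05. Over the 8 pairs of the same animal, phase and colour the exact two-sided sign-flip permutation p was 0.461, 0.258, 0.344 and 0.352, where 0.00781 is the smallest possible. On 5 slides with both treatments pressure was above sham on 1 or 2.

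The pairs lay far from this average. ITGB2 in mid scar was -2.16 (49, hyper), 0.97 (50, hyper), -1.84 (49, hypo) and -2.26 (50, hypo) with pressure, against -2.26, -1.54, 1.87 and -1.90 with sham treatment. CCR1 in mid scar was -1.98, 2.09, -1.08 and -1.27 with pressure, against -1.78, -1.83, 3.22 and -1.76 with sham treatment in the same order. One pair was far higher with pressure, hyper scar of animal 50, and another far lower, hypo scar of animal 49, so that the mean mid differences were 0.04, -0.36, -0.04 and -0.02 for GP91-PHOX, ITGB2, C5AR1 and CCR1 (adjusted p = 0.999 each). In limma 0 of 18765 features were called in mid scar, with 851 at an unadjusted p under 0.05.

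In late scar ITGB2 was -0.19 (49, hyper), -1.5 (50, hyper), -2.46 (49, hypo) and -1.63 (50, hypo) with pressure, against 1.81, -1.71, 0.44 and -1.18 with sham treatment. Late CCR1 was 0.92, -0.92, -1.70 and -1.30 with pressure, against 2.99, -0.65, 2.21 and -0.88 with sham treatment. Late pairs were lower with pressure in 3 of 4 for GP91-PHOX, ITGB2 and C5AR1 and in 4 of 4 for CCR1, and the 2 pairs of animal 49 held the large differences. The means were -1.39 ± 0.85 (SE), -1.28 ± 0.76, -1.55 ± 0.81 and -1.66 ± 0.98 for GP91-PHOX, ITGB2, C5AR1 and CCR1 (adjusted p = 0.881 to 0.892). In limma 0 of 18765 features were called in late scar, with 1059 at an unadjusted p under 0.05.

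**Figure D5:**
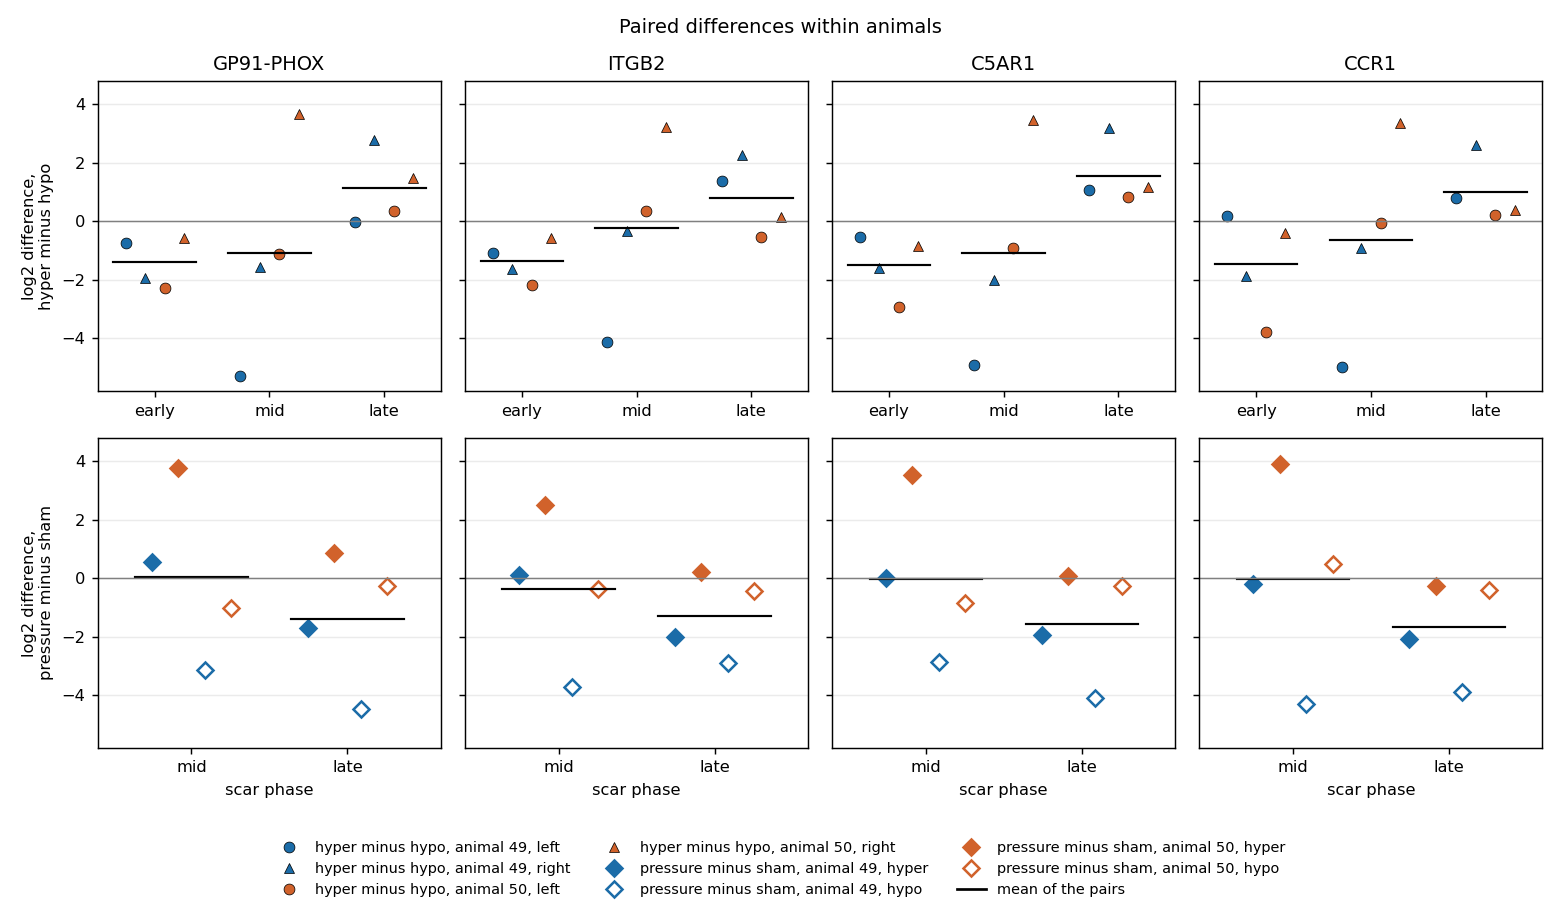
Differences in log2 units (y axis) within pairs of biopsies, hyper minus hypo in 12 pairs and pressure minus sham in 8 pairs, for each gene and phase, with points coloured by animal. Early hyper minus hypo pairs lie below 0 but for 1 of CCR1 (0.18), late ones mostly above 0, and mid pairs run from -5.28 to 3.67.

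The effect of pressure was also taken apart in other ways. The late minus mid change of pressure minus sham was -1.44 ± 1.20 (SE), -0.92 ± 1.08, -1.51 ± 1.15 and -1.64 ± 1.38 for GP91-PHOX, ITGB2, C5AR1 and CCR1 (adjusted p = 0.975 to 0.981). In limma 0 of 18765 features were called, with 875 at an unadjusted p under 0.05. The difference of pressure minus sham between hyper and hypo scar was 3.10 ± 1.20, 2.06 ± 1.08, 2.44 ± 1.15 and 2.38 ± 1.38 (adjusted p = 0.180, 0.308, 0.260 and 0.364), again with 0 of 18765 features called and 3492 at an unadjusted p under 0.05. Without mid pressure hyper 49R it passed for GP91-PHOX (4.26, adjusted p = 0.0310) and C5AR1 (3.67, 0.0346), 1 of 16 fits each.

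The 2 animals differed in sign. In animal 49 alone pressure minus sham was -2.18 for GP91-PHOX, -2.12 for ITGB2, -2.22 for C5AR1 and -2.62 for CCR1, and in animal 50 alone it was 0.83, 0.48, 0.63 and 0.93. Each mid and late group then holds 1 biopsy, so that no test is given for these values. In animal 50 the mid hyper pair held the large positive differences, 3.77, 2.51, 3.54 and 3.91 in the same order of genes. The other pairs of animal 50 ran from -1.03 to 0.85 over the 4 genes. The difference between the animals itself, 50 minus 49, was 3.02 ± 1.0 (SE) for GP91-PHOX, 2.60 ± 0.91 for ITGB2, 2.85 ± 0.98 for C5AR1 and 3.55 ± 1.14 for CCR1. It did not pass over all features (adjusted p = 0.366 to 0.373, unadjusted p = 0.00573 to 0.0101), and 0 of 18765 features did, with 1853 at an unadjusted p under 0.05. The high values behind the negative difference in animal 49 were sham biopsies of its left side. Right minus left in the 6 pairs of control or early sham biopsies ran from -2.25 to 1.52 for GP91-PHOX and -2.18 to 0.94 for ITGB2. It ran from -1.46 to 1.21 for C5AR1 and -3.12 to 2.22 for CCR1. These pairs hold no mid or late biopsy, so treatment and side cannot be told apart there, and the part of side was not tested. For hyper minus hypo the difference between the animals was 0.65 to 1.38 (adjusted p = 0.914 to 0.963), with 0 features called and 1047 at an unadjusted p under 0.05. These terms were added after the data were seen.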

How the data were processed

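Each of the 28 arrays held RNA of 1 skin biopsy in Cy5 and the same pig reference RNA in Cy3, and no dyes were swapped, per the labels. Spot and local background intensity came from Agilent Feature Extraction 10.7.1.1, per the submitters' processing notes. The authors deposited these scanner files and a value table in log2 units, which equals the log2 of red over green processed intensity within 0.001 for nearly all probes of an array.

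Here median spot intensities were used. Local backgrounds were capped at the 99th percentile of array and channel, then corrected by normexp (offset 50) and loess within each array (limma 3.58.1, R 4.3.3). Spots flagged as outliers were set missing, 0.53% of values. Probes well above background on at least 4 arrays were kept (24510), 1 probe per gene or accession (highest mean Cy5), which left 18765 features. Precision is limited by the number of arrays.

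limma was fitted to all 28 arrays with a mean for each of 11 groups and a block for animal, adjusted by Benjamini-Hochberg over all features, threshold 0.05. The animal number in the titles was used to pair the biopsies. Deviations from group means correlated at 0.035 within and -0.035 between animals. Each group holds both animals in equal number, so these values mirror each other by construction. They are small and do not test the pairing. Another number in the titles, which varies with phase, carries no unit, differed within 5 of 12 hyper and hypo pairs, and was not used. Gene symbols came from RefSeq accessions.

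The named genes are the 4 phagocyte genes, up to 4 genes of lowest p of each list described, genes named in background for their role with one of the 4, the 8 features most like their mean and the 3 most like each. One gene that this rule names is not reported here. The members and lists were chosen with earlier results of these data known. Alternatives were other scalings (no background cap, scanner processed signals, the authors' value table, median centring, Cy5 alone), other filters on dim probes and flags, other probes, other blocks, single animals and leaving out each biopsy. Leaving out an animal's side, the exact test of scar against control, the other probe and the animal terms were added after the data were seen. The procedure was tested on simulated data.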

Additional observations from a re-analysis of the deposited data

How the results depend on the processing

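With 4 control biopsies from 2 animals, the scar differences kept their sign under every alternative run other than the dim second C5AR1 probe in early scar, while the calls did not. Values are log2 differences for GP91-PHOX, ITGB2, C5AR1 and CCR1, and the cause of a change was not tested. Of the 4 genes, 2, 2 and 4 were called in early, mid and late scar. The counts were 0, 0 and 0 with median centring, 1, 0 and 0 with Cy5 alone, and 1, 0 and 2 with no dim filter (more features tested). They were 0, 1 and 2 with the mean of all probes, and 0, 0 and 2 with slide as a fixed block. In mid scar they were 0 with the scanner's processed signals or the authors' table. Without 1 biopsy, or without 1 animal's side, they ran from 0 to 3 in early and from 0 to 4 in mid and late scar. Median centring lost the calls of GP91-PHOX (2.14 early, 1.5 mid, 1.12 late), ITGB2 (1.26 mid, 1.20 late), C5AR1 (1.72 early, 1.17 late) and CCR1 (1.71 late). Cy5 alone lost those of GP91-PHOX (1.90 mid, 1.82 late), ITGB2 (1.46 mid, 1.76 late), C5AR1 (1.86 early, 1.84 late) and CCR1 (1.89 late). Without the dim filter GP91-PHOX (1.98 mid, 2.03 late), ITGB2 (1.74 mid), C5AR1 (1.96 early) and CCR1 (2.38 late) were lost. The mean of all probes lost GP91-PHOX (1.42 early, 1.32 mid, 1.34 late) and C5AR1 (0.94 early, 1.12 late), and the dim second probe GP91-PHOX (0.46, 0.65, 0.65) and C5AR1 (-0.072 early, 0.21 late). The second GP91-PHOX probe was well above background on 11 of 28 arrays and on 0 control arrays, so no fold can be read from its values. Slide as a fixed block lost GP91-PHOX (2.52 early, 2.35 mid), ITGB2 (1.83 mid, 2.18 late), C5AR1 (2.18 early) and CCR1 (2.66 late). Processed signals and the authors' table lost GP91-PHOX (1.98) and ITGB2 (1.75) in mid scar. Slide as a random block (1.76) and a replicate block of animal and side (1.74) lost ITGB2 in mid scar, each leaving 1 gene there, and fits without a replicate block changed no call. With a single animal each mid and late group holds 1 biopsy, so no calls are given. In animal 50 alone the mid differences were 1.99 for GP91-PHOX and 1.61 for ITGB2. The late ones were 1.32, 1.29, 1.47 and 1.54. Without the background cap calls were gained for early ITGB2 (1.94) and mid CCR1 (2.17). In animal 49 alone the differences were 1.51 and 1.40 for early ITGB2 and CCR1, and 1.35 and 1.73 for mid C5AR1 and CCR1. Its late differences were 2.75, 2.86, 2.59 and 3.23. The exact test gave an unadjusted p under 0.05 for early ITGB2 (1.48) and CCR1 (1.58) and mid CCR1 (1.75). That p is not adjusted over all features, so these are not calls in the same sense. Leaving out 1 biopsy or 1 side gave early differences of 1.94 to 2.73, 1.17 to 1.81 and 1.63 to 2.20 for the first 3 genes, mid ones of 1.40 to 2.56, 1.27 to 2.21, 0.89 to 2.12 and 1.11 to 2.40, and late ones of 1.34 to 2.68, 1.41 to 2.67, 1.40 to 2.52 and 1.60 to 3.17. Late minus early sham scar then ran from -1.53 to 2.29, -0.25 to 2.82, -0.79 to 2.47 and -0.27 to 3.56, was -1.32, -0.10, -0.62 and -0.060 in animal 50 alone, and -0.46 for GP91-PHOX with median centring.

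Hyper minus hypo was -1.13, -0.59, -0.79 and -0.70 for the 4 genes in animal 49 alone. In animal 50 alone it was 0.25, 0.075 and 0.13 for GP91-PHOX, ITGB2 and C5AR1, and -0.050 for CCR1. With the second C5AR1 probe it was 0.047. Without 1 biopsy or side it ran from -0.57 to 0.057 for ITGB2, -0.74 to 0.077 for C5AR1 and -0.80 to 0.054 for CCR1. In mid scar these ranges were -2.39 to 0.23, -1.34 to 0.90, -2.45 to 0.28 and -1.94 to 0.63, the values of animal 50 alone 1.27, 1.79, 1.28 and 1.64, and those without the background cap 0.037 for ITGB2 and 0.025 for CCR1. In late scar ITGB2 ran from -0.036 to 1.66 and was -0.20 in animal 50 alone. Pressure minus sham was -2.18, -2.12, -2.22 and -2.62 in animal 49 alone and 0.83, 0.48, 0.63 and 0.93 in animal 50 alone. Without 1 biopsy or side it ran from -1.94 to 0.62, -1.93 to 0.32, -2.04 to 0.40 and -2.32 to 0.65. In mid scar it ran from -1.12 to 1.20, -1.43 to 0.74, -1.30 to 1.19 and -1.64 to 1.60. There it was -1.28 for GP91-PHOX in animal 49 alone, 1.07, 1.35 and 2.20 for the other genes in animal 50 alone, -0.064 (mean of probes), -0.17 (second probe) and -0.032 (no cap) for GP91-PHOX, 0.11 (slide fixed) and 0.042 (processed signals and authors' table) for C5AR1, and 0.41 (slide fixed) and 0.047 (animal and side block) for CCR1. In late scar it ran from -3.11 to 0.36, -2.65 to 0.12, -3.17 to 0.018 and -3.36 to 0.048, with 0.30 for GP91-PHOX in animal 50 alone. Its late minus mid change ran from -1.86 to 0.022 for ITGB2 and was 0.13 with the second C5AR1 probe. Each mid and late group of a single animal is 1 biopsy. A test would assume it to vary like the control and early ones, so no calls are given for single animals. Features called in early, mid and late scar and in hyper against hypo and pressure against sham numbered 7292, 6341, 7459, 3 and 0. The late scar count fell to 4429 without the 50L biopsies.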

Other observations

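Further genes followed the phagocyte genes over the 28 arrays. They were chosen after their correlations were seen, and no list of them was tested. With the mean of the 4 genes r was 0.955 for CLEC5A, a myeloid lectin receptor, 0.941 for SLC11A1, the metal transporter of phagosomes, 0.926 for SNX10, a sorting nexin, and 0.914 for the matrix protease MMP12.

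AMBN, known as a gene of tooth enamel, was the second named feature most like the 4 genes. Its r was 0.969 over the 28 arrays and 0.963 for deviations from the group means, and its probe was named by its RefSeq accession alone. Within the antioxidant list GPX1, a glutathione peroxidase, correlated with the 4 genes at r = 0.874, while the level of the whole list did so at 0.079, or 0.641 for deviations from the group means.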
